A study of Homo sapiens with 12 samples.

Results

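The subject here is how differently 2 human diffuse large B cell lymphoma lines had changed their gene expression by day 6 of PRMT5 targeting, gene by gene. OCI-Ly7, a germinal centre B cell-like line, and TMD8, an activated B cell-like line, each carried a guide RNA against PRMT5 that doxycycline induces, and RNA sequencing was done at days 0, 3 and 6 of 20 ng/ml doxycycline. The report rests on OCI-Ly7 at day 6, OCI-Ly7 at day 0, TMD8 at day 6 and TMD8 at day 0, with 2 libraries each, so 8 of the 12 libraries of the series. The guide was present at both days in both lines, no group with doxycycline and another guide was analysed here, and the effects of targeting, of doxycycline and of time in culture cannot be told apart. Whether each line was a pool or 1 clone is not given in the sources used here. For every gene, the day 6 change of TMD8 was taken from the day 6 change of OCI-Ly7, each as log2(FPKM + 1) at day 6 minus day 0, where FPKM is the number of fragments scaled to transcript length and to the mapped fragments of the library. A positive difference therefore means that day 6 against day 0 was higher in OCI-Ly7 than in TMD8, whether through a gain in OCI-Ly7 or a loss in TMD8. The genes were the 9729 of 25369 rows that had a mean of at least 1 FPKM in each line.

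PRMT5 is the main enzyme that places symmetric dimethyl marks on arginine. It works in a complex with WDR77, and its substrate adaptors include RIOK1, COPRS and CLNS1A, of which CLNS1A brings in the Sm proteins that form the core of spliceosomal particles. Histones and ribosomal proteins are also substrates. BCL6, a repressor that holds B cells in the germinal centre state, the survival gene BCL2 and the cyclin gene CCND3 are known drivers of this lymphoma, and HSPA8 encodes the constitutive HSP70 chaperone.

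The deposited FPKM summed to between 408838 and 467819 per library, and 10088 to 11020 genes reached 1 FPKM. Absolute depth is unknown. Relative depth, read from the smallest values, was 0.81 and 0.77 at day 6 against 1 and 1.29 at day 0 in OCI-Ly7, and 0.62 and 0.57 at day 6 against 1 and 1.17 at day 0 in TMD8, so low values at day 6 rest on fewer fragments. Some fragments were assigned to the row of the 45S precursor of ribosomal RNA, where precursor and mature ribosomal RNA cannot be told apart. They made up 21.5% and 27.0% of the total in OCI-Ly7 at day 6, against 14.9% and 13.9% at day 0. In TMD8 the share was 27.1% and 23.5% at day 6, against 6.97% and 10.6% at day 0. The 45S row, RNA45S5, rose in both lines under both scalings, and its own difference of -0.81 did not pass (limma adjusted p = 0.0837). Its fragments enter the total by which FPKM is divided, so each result is also given after a median-ratio scaling of the libraries within each line. Of the lines' markers, some stood as labelled and others did not. MME was at 6.72 to 10.8 FPKM in OCI-Ly7 and at most 0.023 FPKM in TMD8, and CCND2 at 61.5 to 75.6 FPKM in TMD8 and at most 0.11 FPKM in OCI-Ly7. The germinal centre marker LMO2 went the other way, with at most 0.14 FPKM in OCI-Ly7 and 19.9 to 40.0 FPKM in TMD8. So did FOXP1, a marker of the activated B cell-like type, with 13.5 to 22.1 FPKM in OCI-Ly7 and 4.09 to 7.05 FPKM in TMD8. Of the T and NK cell markers, 7 of 14 were listed at 0 in all 8 libraries, including CD3D, CD3E and CD3G.

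Within each line, day 6 was first tested against day 0. As deposited, 473 genes (4.86%) were higher and 2389 (24.6%) lower in OCI-Ly7, and 286 (2.94%) higher and 4541 (46.7%) lower in TMD8. After scaling it was 1202 (12.4%) higher and 1385 (14.2%) lower in OCI-Ly7, and 1186 (12.2%) higher and 997 (10.2%) lower in TMD8. As deposited, 1421 genes passed in both lines, 304 in opposite directions and 1117 in the same direction. After scaling, 688 passed in both lines, 465 in opposite directions and 223 in the same direction, so which kind was more frequent turned with the scaling. Across all 9729 genes the change in OCI-Ly7 and the change in TMD8 had a Pearson r of -0.01 and a Spearman rho of -0.08 after scaling. These describe genes within the same 8 libraries, which share depth and 45S content, and genes are not independent replicates. Since the samples are bulk RNA, fewer cells of a kind and less RNA per cell cannot be told apart.

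The difference was tested for each gene with limma on log2(FPKM + 1), with p-values adjusted by Benjamini and Hochberg over all 9729 genes and a threshold of 0.05. With FPKM as deposited, 1787 genes (18.4%) had a positive and 608 (6.25%) a negative difference past the threshold. The median difference over all genes was then 0.16, since the median gene stood at -0.15 in OCI-Ly7 and -0.31 in TMD8. After scaling the median difference was 0.01, and 1333 genes (13.7%) were positive and 1533 (15.8%) negative. The split of the calls thus moved from 74.6% positive as deposited to 46.5% positive after scaling. The 4 changes of a day 6 library against a day 0 library in OCI-Ly7 all lay above the 4 of TMD8 for 3884 genes (39.9%) as deposited, and all below them for 1704 (17.5%). Under both scalings 1328 genes (13.6%) were positive and 606 (6.23%) negative, and only these are said to have passed from here on. No label says that replicate libraries came from separate cultures, so the p-values measure the spread between these libraries.

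Leaving out 1 library kept the direction of all 1934 genes in each of the 8 fits, but 404 of them passed in every one. The counts were 827 positive and 344 negative without OCI-Ly7 day 0 replicate 1, and 624 and 190 without replicate 2 of that group. They were 342 and 146 without TMD8 day 0 replicate 1, and 454 and 183 without replicate 2. Without the TMD8 day 6 libraries they were 905 and 395 (replicate 1) and 989 and 347 (replicate 2). The genes named below passed under both scalings in each of the 8 fits, except where a library or a limit is given.

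**Figure D1:**
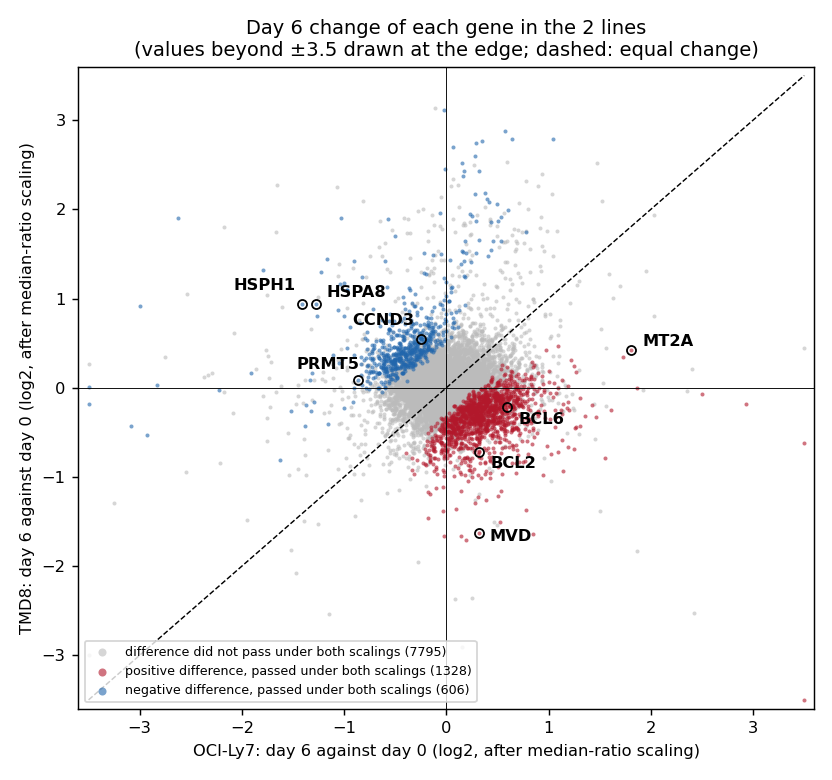
Each point is a gene, with its day 6 minus day 0 change (log2, after median-ratio scaling) in OCI-Ly7 on the horizontal axis and in TMD8 on the vertical axis. The 1328 genes with a positive difference lie below the dashed line of equal change and the 606 with a negative difference above it, HSPA8 and HSPH1 in the part of the plot where OCI-Ly7 fell and TMD8 rose.

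The targeted gene itself was the first difference. PRMT5 was at 21.0 and 19.2 FPKM in OCI-Ly7 at day 6, against 37.9 and 46.9 FPKM at day 0, and at 49.6 and 54.7 FPKM in TMD8 at day 6, against 64.8 and 60.5 FPKM at day 0. Day 6 lay below day 0 in both lines without overlap, by 1.04 on the log2 scale in OCI-Ly7 and by 0.26 in TMD8. The fall passed in OCI-Ly7 under both scalings, and the TMD8 change of -0.26 did not pass (0.09 after scaling). The difference was -0.77 ± 0.17 (SE; limma adjusted p = 0.0202), and -0.95 ± 0.13 after scaling (limma adjusted p = 0.00641). As deposited, it missed the threshold without OCI-Ly7 day 0 replicate 2 (limma adjusted p = 0.0522), TMD8 day 6 replicate 2 (0.0502), TMD8 day 0 replicate 1 (0.063) or TMD8 day 0 replicate 2 (0.0682), while after scaling it passed in all 8 such fits. This is messenger RNA, and the protein was not measured.

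The partners of PRMT5 had negative differences too. WDR77, the obligate cofactor, was at 26.2 and 25.7 FPKM in OCI-Ly7 at day 6, against 42.7 and 41.4 FPKM at day 0, and at 29.3 and 36.4 FPKM in TMD8 at day 6, against 36.4 and 33.3 FPKM at day 0. The days were apart in OCI-Ly7 and overlapped in TMD8. Its difference was -0.58 ± 0.16 (SE; limma adjusted p = 0.0366), and -0.76 ± 0.11 after scaling (limma adjusted p = 0.00725). As deposited it passed in only 1 of the 8 fits without 1 library, that without TMD8 day 6 replicate 1, and the adjusted p reached 0.114 without TMD8 day 0 replicate 2, whereas after scaling it passed in all 8. RIOK1 (-0.43), COPRS (-0.30) and CLNS1A (-0.23) did not pass as deposited, and all 5 genes of the complex passed after scaling. PRMT5, WDR77 and RIOK1 then passed in all 8 fits without 1 library, but all 5 genes in only 1 of them, that without OCI-Ly7 day 6 replicate 1, and no more than 3 genes in 5 of them. CLNS1A passed in 3 of the 8, with an adjusted p of up to 0.117 without TMD8 day 0 replicate 1. Of the 7 other arginine methyltransferase genes measured, 0 passed under both scalings in either direction, although PRMT2 passed as deposited and PRMT3 and PRMT6 after scaling.

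**Figure D2:**
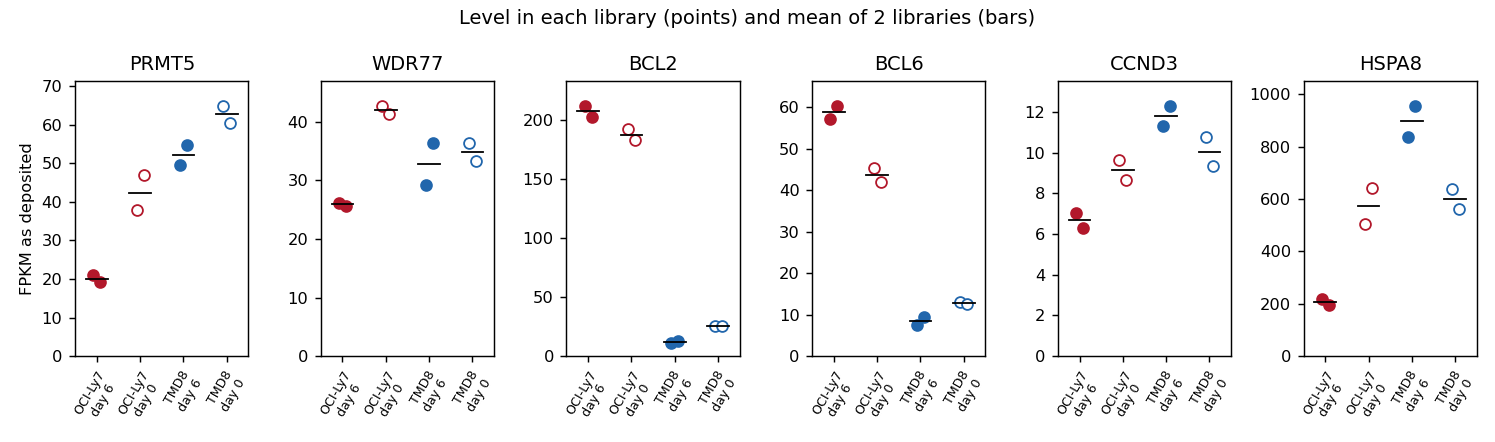
FPKM as deposited of PRMT5, WDR77, BCL2, BCL6, CCND3 and HSPA8 in each library (points, filled at day 6 and open at day 0) with the mean of 2 libraries as a bar. HSPA8 moved in opposite directions in the 2 lines, and BCL2 was lower at day 6 in TMD8 and not in OCI-Ly7.

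Most of the chaperone genes fell in OCI-Ly7. Of 38 measured, 25 were lower and 0 higher at day 6 in OCI-Ly7 as deposited, and 24 lower and 0 higher after scaling. In TMD8, 7 were higher and 3 lower as deposited, and 25 higher and 0 lower after scaling. Among all genes, 4.86% were higher and 24.6% lower in OCI-Ly7 as deposited, and 2.94% and 46.7% in TMD8. After scaling these shares were 12.4% and 14.2% in OCI-Ly7 and 12.2% and 10.2% in TMD8. Chaperones fold new and damaged proteins: the HSP70 and HSP40 families bind unfolded chains, HSP90 matures kinases and receptors, and the TRiC ring folds actin and tubulin. For the difference between the lines, 25 of the 38 (65.8%) had a negative value that passed and 0 a positive one, beside 6.23% and 13.6% of all genes. The median difference of the list was -0.54 as deposited and -0.72 after scaling, made of a median change of -0.55 in OCI-Ly7 and 0.08 in TMD8 as deposited, and of -0.38 in OCI-Ly7 and 0.40 in TMD8 after scaling. The count was 14 to 16 in the fits without either day 0 library of either line or without either TMD8 day 6 library, and 28 and 21 in those without OCI-Ly7 day 6 replicate 1 and replicate 2.

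HSPA8 was at 216 and 197 FPKM in OCI-Ly7 at day 6, against 504 and 641 FPKM at day 0. In TMD8 it was at 838 and 956 FPKM at day 6, against 640 and 561 FPKM at day 0. The days did not overlap in either line, and HSPA8 fell in OCI-Ly7 and rose in TMD8 under both scalings. The difference of -2.04 ± 0.19 (SE; limma adjusted p = 0.00348) was -2.22 after scaling. HSPH1, a nucleotide exchange factor of HSP70, was at 7.12 and 7.25 FPKM in OCI-Ly7 at day 6, against 28.5 and 19.2 FPKM at day 0, and at 81.1 and 90.5 FPKM in TMD8 at day 6, against 62.0 and 52.3 FPKM at day 0. It too fell in OCI-Ly7 and rose in TMD8 under both scalings, with a difference of -2.16 ± 0.25 (SE; limma adjusted p = 0.00514).

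CCT4, a subunit of the TRiC ring, was at 80.6 and 64.0 FPKM in OCI-Ly7 at day 6, against 142 and 181 FPKM at day 0, and at 192 and 193 FPKM in TMD8 at day 6, against 191 and 171 FPKM at day 0. It fell in OCI-Ly7, while TMD8 stayed within 0.09 of day 0 on the log2 scale, and the difference was -1.24 ± 0.21 (SE; limma adjusted p = 0.0114). DNAJB1, an HSP40 cochaperone, and AHSA1, which speeds the HSP90 cycle, moved oppositely in the lines under both scalings, with differences of -0.93 and -0.86. HSPD1, the mitochondrial chaperonin, fell in OCI-Ly7 and had a difference of -0.94, whereas CHORDC1, an HSP90 cochaperone, rose in TMD8 and had a difference of -0.84. Not every chaperone took part. The stress-inducible HSPA1A and HSPA1B had differences of -0.52 each that passed after scaling and not as deposited, and HSP90AA1 (-0.17), HSPB1 (0.09), BAG3 (-0.06) and HSF1 (0.41), the main heat shock factor gene, passed under neither scaling.

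**Figure D3:**
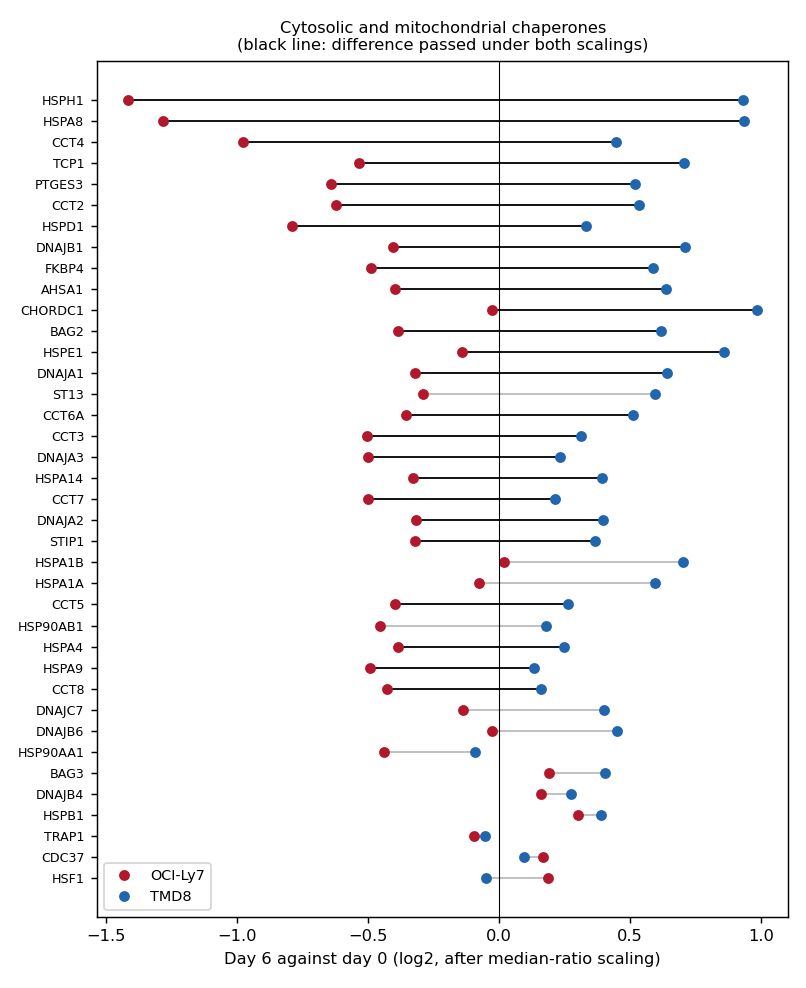
Day 6 minus day 0 change (log2, after median-ratio scaling) of each of 38 chaperone genes in OCI-Ly7 and TMD8, ordered by the difference, with a black line where it passed under both scalings. HSPH1 and HSPA8 lie farthest apart, and the last rows, where the lines nearly coincide, hold TRAP1, CDC37 and HSPB1.

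Heat shock factor binds inverted repeats of GAA, and the 250 bases before the start of each gene were searched for GAANNTTCNNGAA on both strands (on the other strand TTCNNGAANNTTC). It was at 152 of 27305 genes of the RefSeq table (0.557%) and at 6 of 33 chaperone genes with a window (18.2%), of which HSPA8, HSPD1 and CHORDC1 passed for the difference, while HSP90AA1, HSP90AB1 and DNAJB6 did not. Among the 22 chaperone genes with a window that passed, 3 (13.6%) held it. These 3 are printed since they carry the motif beside a difference that passed. They are RefSeq sequences on GRCh38.p14, all on the minus strand, at chr11:123062137-123062386 (HSPA8), chr2:197499841-197500090 (HSPD1) and chr11:90223050-90223299 (CHORDC1), with the matches in capitals. In HSPD1 and CHORDC1 the matches overlap.
HSPA8: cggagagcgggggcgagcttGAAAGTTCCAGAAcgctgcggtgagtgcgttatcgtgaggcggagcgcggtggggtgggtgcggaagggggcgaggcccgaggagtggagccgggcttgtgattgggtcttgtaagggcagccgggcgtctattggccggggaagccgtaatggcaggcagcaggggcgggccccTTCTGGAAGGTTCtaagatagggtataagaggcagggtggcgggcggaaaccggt
HSPD1: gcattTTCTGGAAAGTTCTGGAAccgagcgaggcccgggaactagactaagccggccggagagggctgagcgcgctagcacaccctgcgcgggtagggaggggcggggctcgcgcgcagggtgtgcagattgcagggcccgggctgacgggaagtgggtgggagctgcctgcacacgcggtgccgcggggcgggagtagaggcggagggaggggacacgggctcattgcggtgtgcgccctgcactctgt
CHORDC1: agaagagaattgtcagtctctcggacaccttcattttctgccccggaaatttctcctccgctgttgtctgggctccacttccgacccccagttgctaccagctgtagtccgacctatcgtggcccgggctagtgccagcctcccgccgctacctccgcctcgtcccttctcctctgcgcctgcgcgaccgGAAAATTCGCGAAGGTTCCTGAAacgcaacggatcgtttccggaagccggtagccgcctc
A match describes the letters only, and no binding was measured.

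Among genes for making and degrading protein, the differences that passed were negative in each of 4 lists, but in unequal shares. A further list, of the ATF4 response and the tRNA synthetases, is given below and held 6 positive and 1 negative of 32 genes. That of folding in the endoplasmic reticulum, also given below, held 4 positive and 6 negative of 39 genes. The list of MYC targets and ribosome biogenesis holds nucleolar proteins that assemble ribosomes and the RNA polymerase I subunits. Of its 36 genes 14 (38.9%) had a negative difference and 0 a positive one, with a median of -0.46 (-0.64 after scaling, where 25 passed). POLR1C, shared by RNA polymerases I and III, was at 13.0 and 13.8 FPKM in OCI-Ly7 at day 6, against 19.6 and 19.7 FPKM at day 0, and at 43.8 and 48.0 FPKM in TMD8 at day 6, against 34.4 and 34.0 FPKM at day 0. It fell in OCI-Ly7 and rose in TMD8 under both scalings, and the difference was -0.93 ± 0.11 (SE; limma adjusted p = 0.00543). MRTO4, a ribosome assembly factor, was at 24.2 and 25.1 FPKM in OCI-Ly7 at day 6, against 42.8 and 46.6 FPKM at day 0, and at 50.2 and 57.2 FPKM in TMD8 at day 6, against 54.7 and 47.8 FPKM at day 0. The days of MRTO4 overlapped in TMD8 only, and its difference was -0.90 ± 0.14 (SE; limma adjusted p = 0.0103). MYC itself fell in both lines under both scalings, by 0.70 on the log2 scale in OCI-Ly7 and by 0.85 in TMD8 as deposited, and its difference of 0.15 did not pass (limma adjusted p = 0.549). The count of the list was 17 and 11 without OCI-Ly7 day 6 replicate 1 and 2, 8 and 4 without OCI-Ly7 day 0 replicate 1 and 2, 11 and 7 without TMD8 day 6 replicate 1 and 2, and 4 and 2 without TMD8 day 0 replicate 1 and 2.

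Of 40 proteasome genes, which encode the protease that degrades ubiquitin-tagged proteins, 16 (40%) had a negative difference and 0 a positive one, with a median of -0.34 (-0.52 after scaling). PSMC6, an ATPase of the cap, was at 37.1 and 29.9 FPKM in OCI-Ly7 at day 6, against 57.4 and 62.2 FPKM at day 0, and at 61.1 and 67.1 FPKM in TMD8 at day 6, against 51.7 and 49.3 FPKM at day 0. PSMC6 fell in OCI-Ly7 and rose in TMD8 under both scalings, and the difference was -1.16 ± 0.16 (SE; limma adjusted p = 0.00839). Mitochondrial ribosomal protein genes had 14 of 77 negative (18.2%), MRPS23 (-1.0) first among them, and cytosolic ones 10 of 82 (12.2%), led by RPS3A at -1.04, and in both lists 0 were positive. As deposited, the median change of the cytosolic list was -0.14 in OCI-Ly7 and -0.10 in TMD8, and 35 of its 82 genes had a difference above 0. The Sm, LSm and SMN complex genes, on the splicing side of PRMT5, had 7 of 31 negative (22.6%), among them SNRPA1 (-0.65) and STRAP (-0.62), and 0 positive. SmB, SmD1 and SmD3 are methylated by PRMT5, and their genes SNRPB (-0.20), SNRPD1 (0.14) and SNRPD3 (-0.03) did not pass as deposited. Without 1 library other than an OCI-Ly7 day 6 one, the counts were 2 to 8 for the proteasome, 2 to 8 for mitochondrial ribosomal proteins, 1 to 5 for cytosolic ones and 2 to 4 for the Sm list. Without OCI-Ly7 day 6 replicate 1 the proteasome and both ribosomal protein lists had 19 each and the Sm list 11. Without replicate 2 of that group the proteasome had 13, the mitochondrial list 10, the cytosolic list 9 and the Sm list 4.

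These lists hold abundant genes, and the direction of the difference went with level over all genes. Genes at a mean of 1 to 5 FPKM had positive differences in 16.8% and negative ones in 1.71% of 2449 cases. At 5 to 20 FPKM it was 15.2% and 4.27% of 4330, at 20 to 100 FPKM 9.56% and 12% of 2386, and at 100 FPKM or more 4.96% and 16.3% of 564. The shares of the chaperone, biogenesis and proteasome lists lie above the share of negative calls in every one of these ranges. The 12.2% of the cytosolic ribosomal proteins lies below the 16.3% of genes at 100 FPKM or more, and the 18.2% of the mitochondrial ones and the 22.6% of the Sm list lie above it. The part of level in the calls was not tested.

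Genes of B cell identity and B cell receptor signalling leaned the other way. Of 30 genes of B cell receptor signalling, 13 (43.3%) had a positive difference, beside 13.6% of all genes, and 2 a negative one. The list also holds genes that inhibit the signal, such as FCGR2B. The median difference was 0.42 as deposited, from median changes of -0.10 in OCI-Ly7 and -0.39 in TMD8. After scaling it was 0.25, from 0.07 in OCI-Ly7 and -0.05 in TMD8. In OCI-Ly7 3 of the 30 were higher and 6 lower as deposited, beside 4.86% and 24.6% of all genes. After scaling 11 were higher and 4 lower there, beside 12.4% and 14.2%. In TMD8 2 were higher and 19 lower as deposited, beside 2.94% and 46.7% of all genes. After scaling 3 were higher and 6 lower in TMD8, beside 12.2% and 10.2%. PLCG2, the phospholipase below the receptor, was at 42.8 and 44.3 FPKM in OCI-Ly7 at day 6, against 40.4 and 41.1 FPKM at day 0, and at 19.8 and 22.2 FPKM in TMD8 at day 6, against 43.9 and 41.0 FPKM at day 0. PLCG2 fell in TMD8, and OCI-Ly7 was 0.09 higher on the log2 scale, a change that passed only after scaling. The difference was 1.08 ± 0.12 (SE; limma adjusted p = 0.00429).

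FCGR2B, the inhibitory Fc receptor, was at 1.49 and 1.31 FPKM in OCI-Ly7 at day 6, against 2.70 and 2.30 FPKM at day 0, and at 5.51 and 5.42 FPKM in TMD8 at day 6, against 3.19 and 2.63 FPKM at day 0. FCGR2B fell in OCI-Ly7 and rose in TMD8 under both scalings, with a difference of -1.27 ± 0.16 (SE; limma adjusted p = 0.00621). The receptor's own signalling chains CD79A (0.21) and CD79B (0.07) did not pass under either scaling, nor did the kinase gene SYK (0.42), and the kinase gene BTK (-0.45) passed only after scaling. The positive count was 12 and 10 without OCI-Ly7 day 6 replicate 1 and 2, 8 without either OCI-Ly7 day 0 library, 6 and 10 without TMD8 day 6 replicate 1 and 2, and 4 without either TMD8 day 0 library.

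Of 19 germinal centre regulators 6 had a positive difference (31.6%) and 2 a negative one, and without either TMD8 day 0 library the positive count was 3. BCL6 was at 57.2 and 60.2 FPKM in OCI-Ly7 at day 6, against 45.4 and 41.9 FPKM at day 0, and at 7.56 and 9.36 FPKM in TMD8 at day 6, against 12.9 and 12.6 FPKM at day 0. The days did not overlap in either line: BCL6 rose in OCI-Ly7 under both scalings, and in TMD8 it fell as deposited and did not pass after scaling. The difference was 0.97 ± 0.15 (SE; limma adjusted p = 0.00985), and 0.81 after scaling. PAX5, the factor that commits cells to the B lineage, was at 11.3 and 11 FPKM in OCI-Ly7 at day 6, against 8.05 and 6.86 FPKM at day 0, and at 4.45 and 5.35 FPKM in TMD8 at day 6, against 10.7 and 10.1 FPKM at day 0. PAX5 rose in OCI-Ly7 and fell in TMD8 under both scalings, with a difference of 1.48 ± 0.16 (SE; limma adjusted p = 0.00426).

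TCF3, an E protein of germinal centre cells, had a difference of 0.94, and the surface genes CD22 and CD37 had 1.20 and 1.14. MS4A1, which encodes CD20, fell by 0.51 on the log2 scale in each line as deposited and had a difference of -0.01. Of 16 regulators of plasma cells and activated B cells 4 (25%) were positive and 0 negative, beside 13.6% and 6.23% of all genes. None of these 4, FOXP1, PIM2, TNFRSF13B and MZB1, passed under both scalings in every fit without 1 library. IRF4 (0.47, limma adjusted p = 0.0705) and PRDM1 (0.26, limma adjusted p = 0.542) did not pass.

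BCL2 stood far higher in OCI-Ly7 than in TMD8, across 2 tables that were normalized separately. BCL2 was at 212 and 203 FPKM in OCI-Ly7 at day 6, against 192 and 183 FPKM at day 0, and at 11.1 and 12.5 FPKM in TMD8 at day 6, against 25.9 and 25.2 FPKM at day 0. BCL2 fell in TMD8 under both scalings, and in OCI-Ly7 its change of 0.14 passed only after scaling. The difference was 1.20 ± 0.12 (SE; limma adjusted p = 0.00348), and 1.04 after scaling. BMF, which encodes a BH3-only protein that opposes BCL2, moved with it: 102 and 104 FPKM in OCI-Ly7 at day 6, against 79.3 and 80.4 FPKM at day 0, and 4.79 and 4.91 FPKM in TMD8 at day 6, against 8.40 and 8.34 FPKM at day 0. BMF rose in OCI-Ly7 and fell in TMD8 under both scalings, and its difference was 1.05 ± 0.10 (SE; limma adjusted p = 0.00348). Of the 15 genes of the BCL2 family 3 were positive (20%) and 0 negative, beside 13.6% and 6.23% of all genes. Besides BCL2 and BMF this was BBC3, which did not pass under both scalings in every fit without 1 library. MCL1 had a difference of 1.91 that did not pass (limma adjusted p = 0.289), as its day 0 libraries were far apart, at 5.14 and 44.5 FPKM in OCI-Ly7 and at 16.0 and 51.1 FPKM in TMD8.

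**Figure D4:**
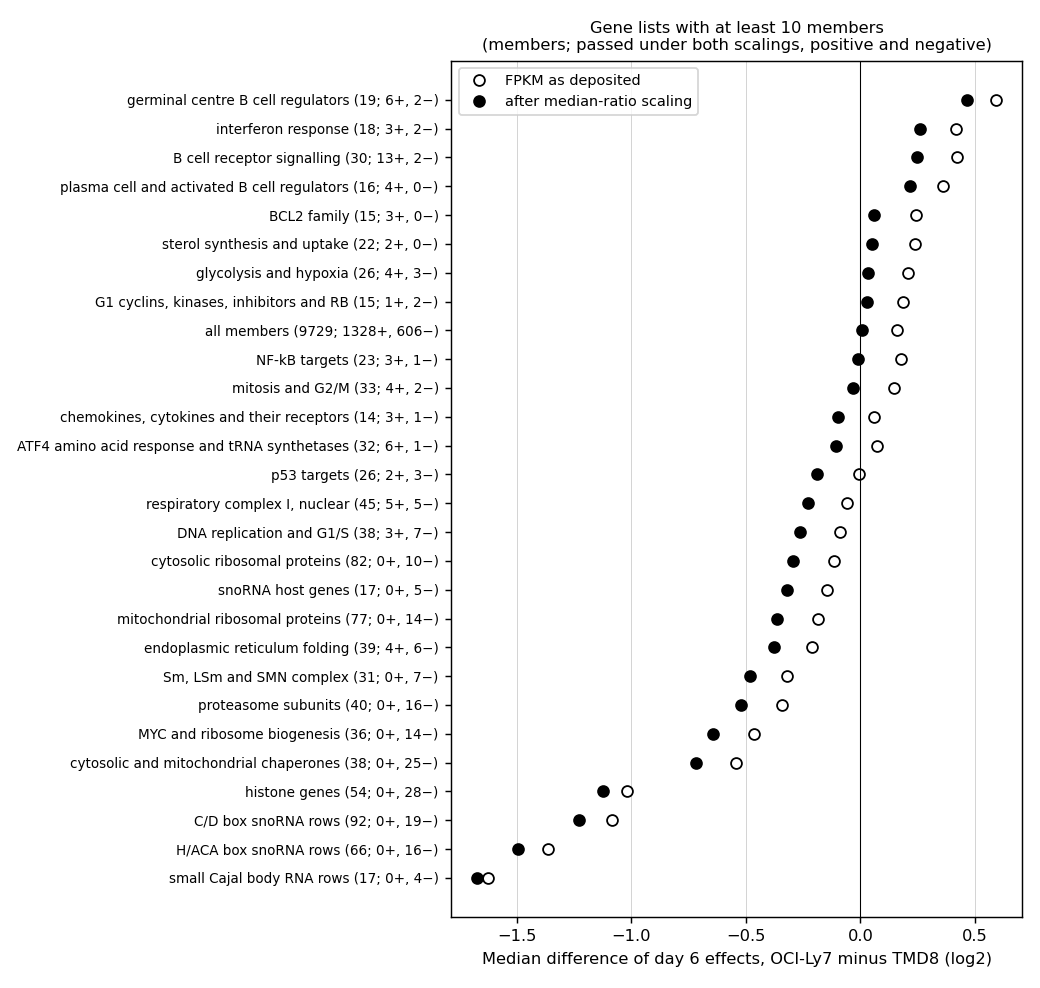
Median difference of day 6 changes, OCI-Ly7 minus TMD8 (log2), of each gene list with at least 10 members, with FPKM as deposited (open) and after median-ratio scaling (filled). The germinal centre and B cell receptor lists lie above 0 on both scales and the chaperone, biogenesis, proteasome, histone and small RNA lists below it.

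The replication list held more negative than positive differences, while the shares of the mitosis list were near those of all genes. CCND3, the D-type cyclin of germinal centre cells, was at 7.05 and 6.30 FPKM in OCI-Ly7 at day 6, against 9.64 and 8.66 FPKM at day 0, and at 11.3 and 12.3 FPKM in TMD8 at day 6, against 10.8 and 9.33 FPKM at day 0. The days did not overlap in either line, and CCND3 fell in OCI-Ly7 as deposited and rose in TMD8 after scaling. The difference was -0.62 ± 0.15 (SE; limma adjusted p = 0.0285), and -0.79 ± 0.12 after scaling. As deposited it passed in only 1 of the 8 fits without 1 library, that without OCI-Ly7 day 6 replicate 1, and the adjusted p reached 0.096 without TMD8 day 0 replicate 2, whereas after scaling it passed in all 8.

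CCNE2, the cyclin of S phase entry, was at 10.6 and 9.57 FPKM in OCI-Ly7 at day 6, against 16.0 and 18.7 FPKM at day 0, and at 3.95 and 4.25 FPKM in TMD8 at day 6, against 3.17 and 2.68 FPKM at day 0. CCNE2 moved oppositely in the lines under both scalings, with a difference of -1.11 ± 0.16 (SE; limma adjusted p = 0.00914). PCNA, the clamp of the replication fork, did the same at -0.84, and MAD2L1, of the spindle checkpoint, fell in OCI-Ly7 and had -1.17. TOP2A, which untangles chromosomes, was at 93.6 and 92.6 FPKM in OCI-Ly7 at day 6, against 92.2 and 102 FPKM at day 0, and at 46.6 and 47.0 FPKM in TMD8 at day 6, against 117 and 109 FPKM at day 0. TOP2A fell in TMD8 while its days overlapped in OCI-Ly7, and the difference was 1.19 ± 0.11 (SE; limma adjusted p = 0.00348). CENPE, a motor of the kinetochore, was positive likewise at 0.85. Of 38 replication genes, 3 (7.89%) were positive and 7 (18.4%) negative, and after scaling alone 3 and 16. Of 33 mitosis genes, 4 (12.1%) were positive and 2 (6.06%) negative, near the 13.6% and 6.23% of all genes. MKI67 (0.13) and CDKN1A (-0.03) did not pass under either scaling. Among p53 targets 2 of 26 were positive and 3 negative, TRIAP1, an inhibitor of apoptosis, with -1.22.

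In metabolism and stress, single genes differed within lists of which most did not pass. Sterol synthesis genes had a median change of -0.66 in OCI-Ly7 and -0.85 in TMD8 as deposited, and of -0.51 in each line after scaling. Of these 22 genes 2 (9.09%) differed, both positive, beside 13.6% positive among all genes. MVD, the decarboxylase of the mevalonate pathway, was at 23.6 and 17.5 FPKM in OCI-Ly7 at day 6, against 20.1 and 16.6 FPKM at day 0, and at 8.45 and 6.86 FPKM in TMD8 at day 6, against 33.0 and 32.4 FPKM at day 0. MVD fell in TMD8, its days overlapped in OCI-Ly7, and the difference was 2.11 ± 0.23 (SE; limma adjusted p = 0.00442). TM7SF2, a sterol reductase, was the other, at 0.82.

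MT2A, a metallothionein that buffers zinc and copper, was at 111 and 95.1 FPKM in OCI-Ly7 at day 6, against 32.5 and 32.5 FPKM at day 0, and at 14.7 and 13.3 FPKM in TMD8 at day 6, against 14.1 and 12.1 FPKM at day 0. MT2A rose in OCI-Ly7, while in TMD8 its days overlapped as deposited and its change of 0.43 passed after scaling. The difference was 1.54 ± 0.16 (SE; limma adjusted p = 0.00403). MT1X, of the same family, had 1.09. PFKL, the liver-type phosphofructokinase of glycolysis, fell in TMD8 and had a difference of 1.41, while SLC16A1, which carries lactate and pyruvate, was at 2.81 and 3.13 FPKM in OCI-Ly7 at day 6, against 27.3 and 33.7 FPKM at day 0, and at 18.2 and 19.8 FPKM in TMD8 at day 6, against 25.4 and 22.3 FPKM at day 0. SLC16A1 fell in OCI-Ly7 under both scalings and did not pass in TMD8, and the difference was -2.67 ± 0.17 (SE; limma adjusted p = 0.00165). Of 23 NF-kB targets 3 (13%) were positive and 1 (4.35%) negative, near the 13.6% and 6.23% of all genes. EBI3, a subunit of interleukins 27 and 35, rose in OCI-Ly7 and had a difference of 1.64. Of 32 genes of the ATF4 response and the tRNA synthetases 6 (18.8%) were positive, AARS among them at 0.77, and 1 (3.12%) negative.

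Histone and small RNA rows had the lowest median differences of the lists with at least 10 members. Of 54 histone rows 28 (51.9%) had a negative difference and 0 a positive one, beside 6.23% and 13.6% of all genes. The median was -1.02 (-1.12 after scaling). The median change was 0.28 in OCI-Ly7 and 1.33 in TMD8 as deposited. In OCI-Ly7 3 of the 54 rows rose and 1 fell, and in TMD8 52 rose and 0 fell. Of all genes, 4.86% rose and 24.6% fell in OCI-Ly7 as deposited, and 2.94% rose and 46.7% fell in TMD8. The histone rows summed to 3455 and 3377 FPKM in OCI-Ly7 at day 6, against 3409 and 3266 FPKM at day 0. In TMD8 they summed to 1263 and 1095 FPKM at day 6, against 428 and 521 FPKM at day 0. HIST1H4C, a replication-dependent H4 gene, was at 63.0 and 95.1 FPKM in OCI-Ly7 at day 6, against 80.3 and 76.3 FPKM at day 0, and at 58.6 and 54.1 FPKM in TMD8 at day 6, against 11 and 15.3 FPKM at day 0. Its days overlapped in OCI-Ly7 and were far apart in TMD8, and the difference was -2.05 ± 0.30 (SE; limma adjusted p = 0.00914). The negative count was 21 and 34 without OCI-Ly7 day 6 replicate 1 and 2, 8 and 11 without OCI-Ly7 day 0 replicate 1 and 2, 9 and 21 without TMD8 day 6 replicate 1 and 2, and 4 and 18 without TMD8 day 0 replicate 1 and 2. Histone genes are near copies of each other, so how reads were divided among the rows is uncertain, and most of their messages lack a poly(A) tail.

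Small nucleolar RNAs guide the modification of ribosomal and spliceosomal RNA. Negative differences passed for 19 of 92 C/D box rows (20.7%), 16 of 66 H/ACA box rows (24.2%) and 4 of 17 small Cajal body RNA rows (23.5%). Positive ones passed for 0, beside 6.23% negative and 13.6% positive among all genes. The medians were -1.08, -1.36 and -1.62. In OCI-Ly7 7 of the 92 C/D box rows and 7 of the 66 H/ACA box rows fell as deposited and 0 rose. In TMD8 34 and 30 of them rose and 0 fell. Among all genes, 24.6% fell and 4.86% rose in OCI-Ly7, and 46.7% fell and 2.94% rose in TMD8. SNORD50B, a C/D box RNA, was at 4.92 and 6.60 FPKM in OCI-Ly7 at day 6, against 10.8 and 9.53 FPKM at day 0, and at 28.4 and 33.7 FPKM in TMD8 at day 6, against 9.45 and 10.3 FPKM at day 0. SNORD50B fell in OCI-Ly7 and rose in TMD8 under both scalings, with a difference of -2.28 ± 0.20 (SE; limma adjusted p = 0.00348). Without OCI-Ly7 day 6 replicate 2, the C/D count was 38 and the H/ACA count 32. They were 7 and 4 without TMD8 day 0 replicate 1, 9 and 6 without replicate 2, and 11 and 3 without OCI-Ly7 day 0 replicate 2. The H/ACA count was also 8, 9 and 10 without OCI-Ly7 day 0 replicate 1, TMD8 day 6 replicate 1 and OCI-Ly7 day 6 replicate 1, and 24 without TMD8 day 6 replicate 2. The snoRNA sum was 2553 and 4544 FPKM in OCI-Ly7 at day 6, against 3417 and 3850 FPKM at day 0, and 5632 and 4002 FPKM in TMD8 at day 6, against 1764 and 1998 FPKM at day 0. The 45S share given above moved with these sums in TMD8, and its part in the result was not tested. The small Cajal body count was 2 without OCI-Ly7 day 0 replicate 2 and 7 without OCI-Ly7 day 6 replicate 2. Small RNAs are short, and FPKM of rows shorter than the library fragments is unreliable.

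**Figure D5:**
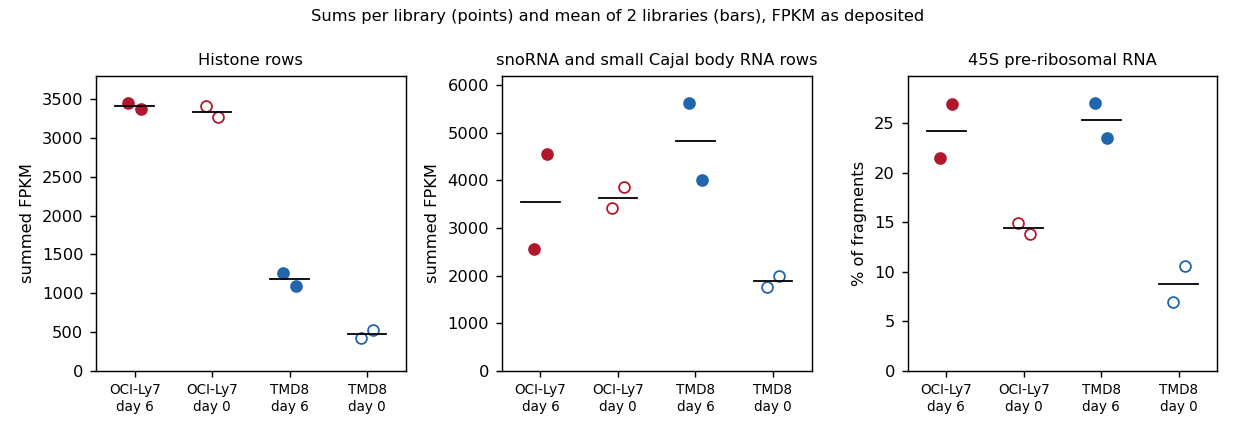
Summed FPKM of histone rows and of snoRNA and small Cajal body RNA rows, and the share of fragments (%) assigned to the 45S row, in each library. Bars lie at the mean of 2 libraries. In TMD8 all 3 were higher at day 6 than at day 0 in both libraries, while in OCI-Ly7 the 45S share was higher and the histone and snoRNA sums of the days overlapped.

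Genes that passed in both lines in opposite directions, and also for the difference, numbered 103 under both scalings, 72 positive and 31 negative. TMPRSS6, a membrane protease, was at 7.41 and 6.57 FPKM in OCI-Ly7 at day 6, against 2.11 and 1.91 FPKM at day 0, and at 2.87 and 3.15 FPKM in TMD8 at day 6, against 7.56 and 7.44 FPKM at day 0. The 2 lines thus nearly exchanged levels, with a difference of 2.49 ± 0.14 (SE; limma adjusted p = 0.000852). ABCA7, a lipid transporter, had 2.12, PNISR, a splicing-related serine and arginine rich protein, 1.90, ANKRD12, an ankyrin repeat protein, 1.85, and EPHB1, an ephrin receptor, 1.69. Among the negative ones, TMCO1, a calcium channel of the endoplasmic reticulum, was at 5.21 and 2.88 FPKM in OCI-Ly7 at day 6, against 16.8 and 19.1 FPKM at day 0, and at 16.1 and 16.9 FPKM in TMD8 at day 6, against 7.98 and 7.62 FPKM at day 0. Its difference was -2.94 ± 0.29 (SE; limma adjusted p = 0.00354), and CHAC2, which degrades glutathione, had -1.76. Genes that passed in both lines in the same direction and also for the difference under both scalings numbered 8. The 5 positive ones were METTL3, TAF15, FANCD2, CPNE2 and FASN, and the 3 negative ones CCL22, MRPL42 and TP53I11. Of the 8, 7 fell in both lines and 1, CCL22, rose. Requiring a difference favours opposite changes, so 8 and 103 do not compare how frequent the 2 kinds were. Without it, 1117 genes changed in the same and 304 in opposite directions as deposited, and 223 and 465 after scaling. None of the 8 passed under both scalings in every fit without 1 library: without TMD8 day 0 replicate 1 all except TAF15 missed the threshold as deposited, and TAF15 had an adjusted p of up to 0.0662 after scaling. As deposited, CCL22 and TP53I11 passed only without TMD8 day 6 replicate 1, METTL3 in 4 and FASN in 3 of the 8 fits.

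Some of the largest differences sat in rows whose values passed between neighbours or to 0. CD99, a surface glycoprotein gene, was at 20.8 and 18.5 FPKM in OCI-Ly7 at day 6 and listed at 0 in both day 0 libraries, and in TMD8 it was listed at 0 in both day 6 libraries and at 34.0 and 32.8 FPKM at day 0. Its day 3 values were 31.3 FPKM and listed at 0 in OCI-Ly7. An exact 0 in these files can be a failed estimate, and no fold is given. SENP3-EIF4A1, a read-through row, was at 128 and 142 FPKM in OCI-Ly7 at day 6, against 0.30 and 0.33 FPKM at day 0, while EIF4A1, whose exons it holds, was at 39.0 and 0 FPKM at day 6, against 540 and 591 FPKM at day 0.

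In TMD8 SENP3-EIF4A1 stayed at 0.12 to 3.37 FPKM. MEF2B was at 1.73 and 0.084 FPKM in OCI-Ly7 at day 6, against 60.3 and 57.9 FPKM at day 0, while the read-through row MEF2BNB-MEF2B was at 52.5 and 32.1 FPKM at day 6, against 2.69 and 0.19 FPKM at day 0. TXNDC5 was at 0.18 and 0 FPKM in OCI-Ly7 at day 6, against 24.0 and 31.2 FPKM at day 0, beside 1.12 and 20.2 FPKM of BLOC1S5-TXNDC5 at day 6, against 0 and 0 FPKM at day 0. How reads were divided within each such pair is uncertain, so the differences of SENP3-EIF4A1 (7.44), MEF2B (-4.59) and TXNDC5 (-4.37) are too. Of 125 measured genes with a read-through row 26 passed, and 4 of 28 measured read-through rows passed. Of 92 genes listed at 0 in any of the 8 libraries, 9 passed. Among all 9729 genes, 1934 (19.9%) passed in either direction.

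The genes that passed were also set beside all genes in level, kind and length, with no test. Their median FPKM over the 8 libraries was 7.76 for positive and 29.8 for negative differences, beside 10.4 for all genes. Protein-coding genes made up 96.7% of positive, 90.5% of negative and 94% of all genes that had an annotation. Small nucleolar RNAs made up 0 of the positive and 35 of the negative ones, of 159 in all. Median transcript length in GENCODE 29 was 951 bases for positive, 836.5 for negative and 942 for all genes.

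At day 3, in a fit over the 12 libraries, the difference between the lines passed for 10 genes as deposited (0.103%), 4 positive and 6 negative, and for 9 after scaling (0.0925%). At an unadjusted p under 0.05 there were 1036 and 723. The day 3 difference uses the same day 0 libraries as that of day 6. The day 3 difference of HSPA8 was -0.16, that of PRMT5 0.13, of BCL2 0.40 and of BCL6 0.63, and none of these passed; their day 6 differences were -2.04, -0.77, 1.20 and 0.97. The chaperone list had a median day 3 difference of 0.10 as deposited and -0.07 after scaling. Whether the difference itself changed between day 3 and day 6 was not tested.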

How the data were processed

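RNA was sequenced in OCI-Ly7 and TMD8 with an inducible guide against PRMT5; per the labels, RNA came from RNeasy Plus mini kits and libraries from the Illumina TruSeq RNA kit. HISAT, StringTie and hg19 are named, without tool versions, in the submitters' processing notes. FPKM per library, as the authors computed and deposited them, came in 1 table per line. The treatment protocol names other days than the titles, characteristics and design, which were followed.

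Rows were matched by name (25365; 24 have date-form names, 13 of them among the 9729 genes). Genes needed a mean of 1 FPKM over the 4 libraries of each line, and the pseudocount was 1. The difference was fitted with limma 3.58.1 (R 4.3.3; mean-dependent trend; 4 groups, 4 residual degrees of freedom), checked on simulated data. Median-ratio scaling was computed within each line. The 45S share is its FPKM times its RefSeq length of 13357 nt. Promoters were read from RefSeq tables and figures drawn with matplotlib 3.10.9 in Python 3.11.15.

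The members, the 36 gene lists and the markers were chosen with earlier results of these data known. The rule named the fixed markers, the 15 largest differences in each direction, up to 4 genes per list and up to 10 per direction with opposite or like changes in the lines, 156 genes in all. DNAJB1, AHSA1, HSPD1, CHORDC1 and the genes given as not passing, beyond the fixed markers, were named after their values were seen. Some genes that the rule names are not reported here. Alternatives were another pseudocount, other level filters, other scalings, no trend, all 12 libraries, a replicate block and fits without 1 library.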

Additional observations from a re-analysis of the deposited data

Results flagged for a closer look

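Each result here is listed because the day 6 change was tested to differ between OCI-Ly7 and TMD8, or because it lies in the day 3 libraries that the day 6 comparison does not use. The difference passed under both scalings for 1328 genes in the positive and 606 in the negative direction (limma, adjusted p under 0.05). The split depends on the scaling: 1787 positive and 608 negative as deposited, and 1333 and 1533 after scaling. Values below are differences of log2 changes, OCI-Ly7 minus TMD8, as deposited.

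Of the fixed markers, BCL2 (1.20) and BCL6 (0.97) were positive, and PRMT5 (-0.77), WDR77 (-0.58), CCND3 (-0.62) and HSPA8 (-2.04) negative.

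Among genes that passed in both lines in opposite directions, the positive ones with the largest values were TMPRSS6 at 2.49, ABCA7 at 2.12, ATHL1 at 2.05, PNISR at 1.90, ANKRD12 at 1.85, RENBP at 1.82, AHNAK at 1.80, ASS1 at 1.77 and EPHB1 at 1.69. CD99 also passed, and was listed at 0 in both libraries of TMD8 day 6 and of OCI-Ly7 day 0, so no value is given.

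The negative ones were TMCO1 at -2.94, SNORD50B at -2.28, HSPH1 at -2.16, SNORA18 at -1.91, SNORD87 at -1.85, CHAC2 at -1.76, FCGR2B at -1.27 and HIST1H2BE at -1.24. SCARNA16 also passed, and was listed at 0 in both OCI-Ly7 day 6 libraries, so no value is given.

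In the day 3 libraries, the difference between the lines passed for 10 genes as deposited.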

How the results depend on the processing

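No named difference that passed was reversed by any alternative; 658 of the checks on named genes lost and 12 gained the threshold, and 4870 kept their side. As deposited, the difference passed for 2395 genes, for 1494 with a mean of at least 5 FPKM (fewer genes tested) and for 874 with the replicate number as a block. After scaling, 2866 passed, and 1046 with the replicate block. In OCI-Ly7 alone the replicate block left 1300 genes as deposited and 528 after scaling. In TMD8 alone it was 2966 with a mean of at least 5 FPKM, 2636 with libraries scaled to equal sums without small RNA and histone rows, 2190 with median-ratio scaling over both lines together and 2183 within each line; after scaling, the replicate block left 502. Fits without 1 library gave 514 to 2257 for the difference as deposited and 1032 to 2781 after scaling, 379 to 2884 and 455 to 2410 for OCI-Ly7, and 1481 to 5223 and 253 to 2481 for TMD8. The lowest count of the difference as deposited, 514, came without TMD8 day 0 replicate 1. Each of these fits leaves out 1 library, and the cause of the low count was not tested.

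Replicate numbers were not shown to pair libraries: deviations of same-numbered libraries correlated at -0.08 in OCI-Ly7 and -0.16 in TMD8, and of the 1934 genes 622 passed with the block under both scalings. With the numbers crossed in TMD8, a setting chosen after the data were seen, the difference passed for 2280 genes as deposited and 2320 after scaling. Leaving out rows listed at 0 was also chosen after seeing the data. With FPKM alone, depth is unknown, and low values at day 6 rest on fewer fragments than at day 0.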

Other observations

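For the lists not described in full above, calls are given over both scalings, beside 13.6% positive and 6.23% negative among all genes. Of 39 genes of folding in the endoplasmic reticulum 4 were positive and 6 negative; the list medians were -0.21 as deposited and -0.38 after scaling. Of 45 nuclear genes of respiratory complex I, 5 were positive and 5 negative. Of 18 interferon response genes 3 were positive and 2 negative, and of 6 genes of MHC class II 0 were positive and 2 (33.3%) negative. These 2, HLA-DPA1 and CTSS, did not pass under both scalings in every fit without 1 library. Both also missed the threshold with the replicate number as a block, as deposited and after scaling. HLA-DPA1 missed it with a pseudocount of 0.1 as well. Of 17 snoRNA host genes 0 were positive and 5 (29.4%) negative, SNHG17 among them at -0.66. Of 26 glycolysis and hypoxia genes 4 were positive and 3 negative, of 14 chemokine and cytokine genes 3 and 1, and of 15 genes of G1 cyclins, kinases and RB 1 and 2. Of 5 metallothionein and zinc genes 2 (40%) were positive and 0 negative, and of 7 B cell markers 4 (57.1%) and 0. No gene of the T and NK cell or stromal and epithelial lists reached the level filter in both lines, and 1 myeloid marker, CD68, did, with a difference of 0.15 that did not pass. Mitochondrially encoded genes had 0 rows.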
